A study of Mus musculus with 35 samples.

Results

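The genes described here are 38 genes of the unfolded protein response and of protein folding in the endoplasmic reticulum (ER), taken from a list of symbols that was drawn up with earlier results of these data known, with no threshold on measured values, out of 54119 annotated genes. By role they are 4 stress sensors (Ern1, Eif2ak3, Atf6, Atf6b), 3 transcription factors (Xbp1, Atf4, Ddit3), 9 chaperones and co-chaperones (Hspa5, Hsp90b1, Hyou1, Dnajb9, Dnajb11, Dnajc3, Sdf2l1, Creld2, Manf), 2 lectin chaperones (Calr, Canx), 4 protein disulfide isomerases (P4hb, Pdia3, Pdia4, Pdia6), 8 genes of ER-associated degradation (Herpud1, Sel1l, Syvn1, Derl1, Derl2, Derl3, Edem1, Edem2), 5 outputs of the PERK and ATF4 branch (Trib3, Ppp1r15a, Ppp1r15b, Chac1, Asns) and 3 KDEL receptors (Kdelr1, Kdelr2, Kdelr3). All 38 passed the filter on low counts in every comparison. RNA was sequenced from cells separated with magnetic beads against ACSA2, a surface antigen of astrocytes, out of cortex, hippocampus and hypothalamus. The mice were males of the inbred strain C57BL/6JRj. From an age of 8 to 9 weeks and over 4 months, the animals ate either a high-fat high-sugar diet (HFHS, given as 58%) or standard chow (SC), and the labels give no other treatment or allele. The 35 libraries form 6 groups: hypothalamus on SC (n = 6) and HFHS (n = 5), hippocampus on SC (n = 5) and HFHS (n = 7), and cortex on SC (n = 6) and HFHS (n = 6). Each library pools 2 animals, so the spread between libraries is the spread between pools. Cortex cells were passed over larger columns (LS) with scaled-up volumes and the other regions over MS columns, so region and column cannot be told apart in any comparison with cortex.

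The ER folds secreted and membrane proteins, and unfolded protein in its lumen activates sensors in its membrane. IRE1 alpha (Ern1) removes a short intron from Xbp1 mRNA, PERK (Eif2ak3) phosphorylates the initiation factor eIF2 alpha and so lowers translation while ATF4 protein is made, and ATF6 is cut in the Golgi to release a transcription factor. These factors raise chaperones such as BiP (Hspa5), folding enzymes, the machinery that removes misfolded protein, and genes of amino acid supply. KDEL receptors return escaped chaperones from the Golgi to the ER. Astrocytes secrete many proteins, and ER stress in hypothalamus has been studied in diet-induced obesity.

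Library totals lay between 47578560 and 65982495 estimated reads. The 10 astrocyte markers were all detected in every group, with a median summed level of 12821 TPM (a level scaled to library size and transcript length) in cortex SC libraries, 3477 in hypothalamus and 2224 in hippocampus. The 8 oligodendrocyte markers, genes of myelin, summed to 29554, 74986 and 67895 TPM in the same order, so RNA of other cells was present in all regions. Against cortex on SC, 8 of 10 astrocyte markers were lower in hypothalamus and 9 in hippocampus, and 5 of 5 ependymal markers were higher in both, with a median sum of 82.1 TPM in cortex, 1021 in hippocampus and 3916 in hypothalamus. The 4 choroid plexus markers summed to between 129.8 and 31959 TPM in hippocampus on SC. These marker levels differed between the regions, and their part in the regional differences below was not tested. In such mixed RNA, fewer cells of a type and less RNA per cell cannot be told apart. Libraries 6 of cortex SC, cortex HFHS and hypothalamus SC had reads from shorter transcripts than the rest of their groups (read-weighted mean transcript length 1922, 2179 and 2483 bases, against group medians of 2642, 2869 and 2849), and calls that were lost without them are given as such.

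On the TPM scale the members spanned a wide range of levels. Hspa5, which encodes the ER lumen Hsp70 chaperone BiP (chromosome 2, chr2:34771970-34777547, build GRCm38), was the most abundant, with a median of 686 TPM over the 35 libraries and rank 131 among all genes. Hsp90b1, the ER lumen Hsp90, followed at 342 TPM, then the calcium-binding lectin chaperone Calr at 288, the disulfide isomerase Pdia3, which works with it, at 286, and Pdia6 at 230.2. Xbp1 stood at 147 TPM, Ddit3, which encodes the stress factor CHOP, at 86.2, and Atf4 at 43.4. Among the sensors, Atf6b stood at 44.2 TPM, whereas Eif2ak3 at 5.26, Atf6 at 4.23 and Ern1 at 1.42 were low. The PERK outputs Trib3, a pseudokinase, and Chac1, a glutathione-degrading enzyme, were lowest, at 0.926 and 0.671 TPM. Each of them, and Kdelr3, was listed at 0 in 1 library. As a median over libraries, all members together took 4076 TPM in hypothalamus on SC, 4669 in hippocampus and 2635 in cortex, and 4201, 4541 and 2948 on HFHS. The chaperones took the largest part of this in each group, from 943 TPM in cortex SC to 1929 in hippocampus SC.

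The members that stood out by region were Kdelr3, Derl3, Pdia4, Creld2 and Ppp1r15a, which were higher than in cortex in hypothalamus and in hippocampus on each diet, with log2 differences from 0.71 (Creld2 in hippocampus on SC) to 3.91 (Kdelr3 in hypothalamus on HFHS). Hspa5 was higher than in cortex in hippocampus on both diets and in hypothalamus on SC. Kdelr3, Derl3, Pdia4, Creld2 and Ppp1r15a kept their calls under every alternative tried in all 4 comparisons. Among the lower members were Derl2 and, in hypothalamus on SC, Kdelr1. The hypothalamus and hippocampus comparisons on a diet share the cortex libraries. Regions were compared within each diet on estimated counts with edgeR, and a gene was called at an adjusted p under 0.05 over all 21574 genes tested. Hippocampus on SC had the most called members: 18 of the 38 were higher than in cortex and 0 lower. Of all genes 30.8% were called in that comparison, 15.4% higher and 15.3% lower. On HFHS 11 were higher and 1 lower in hippocampus, against 24.2% of all genes (13.4% called higher and 10.8% lower). In hypothalamus 8 members were higher and 4 lower than in cortex on SC, against 36.1% of all genes (17.7% called higher and 18.3% lower), and 9 were higher and 1 lower on HFHS, against 23.9% (14.6% called higher and 9.21% lower). With both directions together, 47.4% of the members were called in hippocampus on SC and 31.6% on HFHS, and 31.6% and 26.3% in hypothalamus, where the totals are near those of all genes. Calls of members leaned to the higher side more than those of all genes in all 4 comparisons. Unless another setting is named, a call is that of edgeR with all libraries and no replicate block. The members' median log2 difference from cortex was 0.56 in hippocampus and 0.20 in hypothalamus on SC, and 0.25 and 0.09 on HFHS, beside medians of all genes of 0.04, 0.07, 0.05 and 0.01. The split depended on the scaling. On the deposited TPM values (limma on log2 of TPM plus 1), where the median of all genes itself stood at 0.30, 21 members were higher in hypothalamus than in cortex on SC and 0 lower. In hippocampus on SC the TPM split was 23 to 0 with a median of all genes of 0.23. Shares of all genes called on the TPM scale are not given here. These TPM splits therefore do not set the members apart from all genes. Among called members, TPM differences on SC were over 1.5 times the count differences in hypothalamus for Hspa5 (1.22), Creld2 (1.52) and Asns (1.21), and in hippocampus for 13 members, from 0.91 for Dnajb11 to 1.79 for Edem1. The SC and HFHS comparisons share no library. Between them, 7 members were called in hypothalamus on both diets (58.3% of those called on SC and 70.0% of those on HFHS), 6 of them in the same direction, and 9 in hippocampus (50.0% and 75.0%), all in the same direction. Over all genes tested the same shares were 48.8% and 73.8% in hypothalamus and 52.8% and 67% in hippocampus, so the overlap of the members was near that of all genes. Of all genes called on both diets, 99.9% had the same direction in each region. With the replicate number as a block, 15 members were called between hypothalamus and cortex on SC (12 higher and 3 lower): Dnajb9 was lost, and Hyou1 at 1.10 (adjusted p = 0.0499), Sel1l at 0.64 (adjusted p = 0.0352), Syvn1 at 0.83 (adjusted p = 0.0357) and Ppp1r15b at 0.62 (adjusted p = 0.0399) were gained. The share of all genes called with the block is not given here, so the blocked count has no comparison with all genes. Whether a regional difference differed between the diets is the interaction given with the diet results, in which edgeR called no member.

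**Figure D1:**
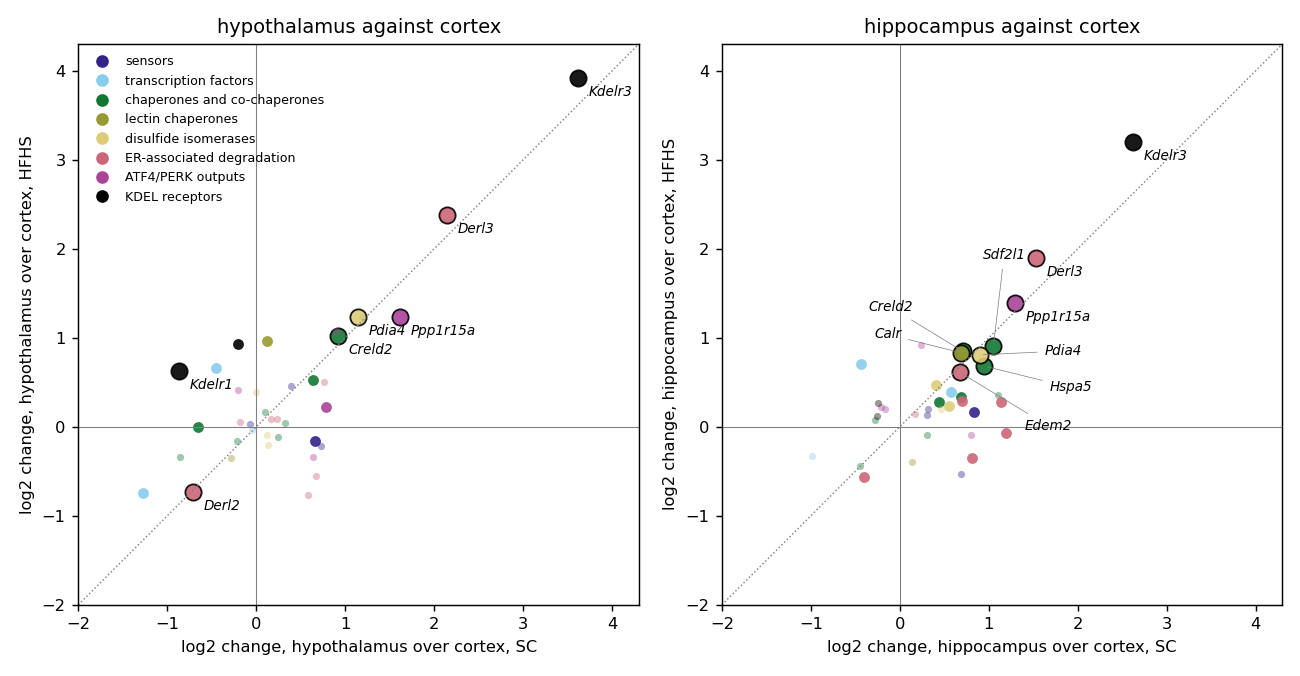
Log2 difference of each of the 38 members from cortex on SC (x axis) and on HFHS (y axis), for hypothalamus (left) and hippocampus (right), from edgeR on estimated counts. Colour gives the role, the largest outlined points passed on both diets, middle-sized points on a single diet and pale small points on neither, and the dotted line marks equal differences. Kdelr3 lies furthest out in both panels, at 3.61 and 3.91 in hypothalamus, and Kdelr1 alone of the outlined points lies below 0 on SC and above 0 on HFHS.

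The KDEL receptors differed most among themselves. Kdelr3 (chromosome 15, chr15:79516411-79527739) is a receptor of the family that is known as a target of the unfolded protein response. Kdelr3 lay between 20.4 and 32.6 TPM (median 28.1) in hypothalamus on SC and at 23.6, 21.5, 20.8, 33.9 and 32.2 TPM on HFHS. In hippocampus Kdelr3 lay at 10.9, 10.8, 14.5, 13.4 and 14.5 TPM on SC and between 6.76 and 23.0 TPM (median 16.1) on HFHS. Cortex Kdelr3 lay between 0.727 and 2.82 TPM (median 1.47) on SC and between 0 and 3.69 TPM (median 1.51) on HFHS. Every hypothalamus and hippocampus library exceeded every cortex library on the same diet, and on SC every hypothalamus library also exceeded every hippocampus library. Group means followed the same order on SC: 27.1 ± 5.59 TPM (SD, n = 6), 12.8 ± 1.87 TPM (SD, n = 5) and 1.54 ± 0.837 TPM (SD, n = 6). Against cortex, Kdelr3 was 12.2-fold higher in hypothalamus on SC, a log2 difference of 3.61 ± 0.50 (SE; edgeR adjusted p = 8.59e-07), and on HFHS the difference was 3.91 ± 0.52 (SE; edgeR adjusted p = 5.72e-07). In hippocampus it was 2.62 ± 0.49 (SE; edgeR adjusted p = 0.000204) on SC and 3.20 ± 0.49 (SE; edgeR adjusted p = 1.19e-05) on HFHS. The makeup of the family also differed by region. Kdelr3 made up 39.5% ± 3.65 (SD, n = 6) of the summed KDEL receptor TPM in hypothalamus on SC, 19.5% ± 2.45 (SD, n = 5) in hippocampus and 3.41% ± 1.43 (SD, n = 6) in cortex. On HFHS its share was 31.4% ± 8.80, 27.5% ± 10.4 and 4.74% ± 3.37 (SD, n = 5, 7 and 6).

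Kdelr1 (chromosome 7, chr7:45872772-45883732), the most abundant receptor of the family in 6 of the 6 groups by mean TPM, lay below cortex in hypothalamus on SC and above it on HFHS. In hypothalamus on SC the mean shares of the family lay close, at 41.5% for Kdelr1 and 39.5% for Kdelr3. Hypothalamus SC libraries 3, 5 and 6 held more Kdelr3 than Kdelr1. Kdelr1 lay between 23.8 and 32.7 TPM (median 27.2) in hypothalamus on SC and at 32.6, 51.1, 38.4, 40.1 and 35.1 TPM on HFHS. In hippocampus Kdelr1 lay at 43.7, 35.4, 39.2, 37.98 and 50.1 TPM on SC and between 15.0 and 37.7 TPM (median 33.3) on HFHS. Cortex Kdelr1 lay between 9.46 and 52.8 TPM (median 35.7) on SC and between 8.46 and 34.0 TPM (median 20.9) on HFHS. In cortex on SC library 6 lay at 9.46 TPM and the others at 33.5 TPM or more. Against cortex, Kdelr1 was lower in hypothalamus on SC, at a log2 difference of -0.87 ± 0.20 (SE; edgeR adjusted p = 0.000714), and higher on HFHS, at 0.63 ± 0.20 (SE; edgeR adjusted p = 0.0221). On SC the call held without each library in turn and was lost on the TPM scale (-0.20, adjusted p = 0.596). On HFHS the TPM difference was larger, at 0.9999 (adjusted p = 0.0136), and fewer libraries carried the count difference. The Kdelr1 call was lost without the short libraries (0.54, adjusted p = 0.0567) and without hypothalamus HFHS 2 or cortex HFHS 4 or 5 (log2 0.49 to 0.58, adjusted p between 0.0507 and 0.0898). In hippocampus the differences from cortex were -0.24 ± 0.21 (SE; edgeR adjusted p = 0.391) on SC, which turned to 0.335 on the TPM scale, and 0.27 ± 0.19 (SE; edgeR adjusted p = 0.32) on HFHS. Kdelr2 is the remaining receptor. Kdelr2 lay between 8.85 and 20.3 TPM (median 12.7) in hypothalamus on SC and at 12.4, 20.6, 39.1, 12.7 and 14.2 TPM on HFHS. In hippocampus Kdelr2 lay at 10.5, 11.3, 9.83, 12.1 and 15.4 TPM on SC and between 10.1 and 12.3 TPM (median 11.4) on HFHS. Cortex Kdelr2 lay between 6.57 and 13.3 TPM (median 9.88) on SC and between 5.62 and 13.3 TPM (median 8.09) on HFHS. Hypothalamus HFHS library 3, at 39.1 TPM, stood above all others. Kdelr2 was higher in hypothalamus than in cortex on HFHS, by 0.93 ± 0.27 (SE; edgeR adjusted p = 0.00972), and without that library the difference was 0.48 (adjusted p = 0.151). On SC the difference was -0.21 ± 0.25 (SE; edgeR adjusted p = 0.56), and 0.353 on the TPM scale.

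**Figure D2:**
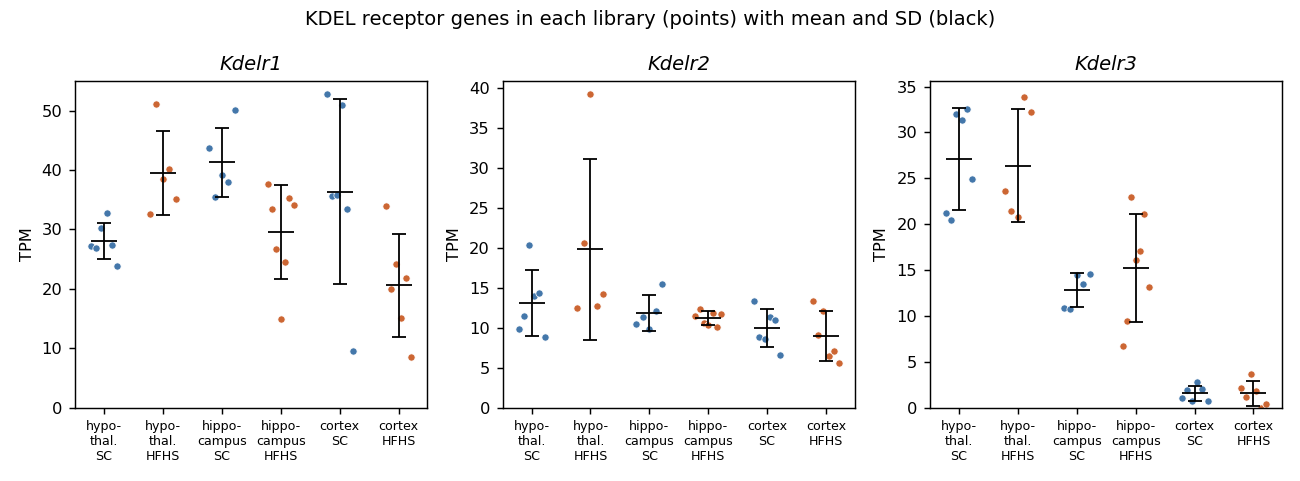
TPM of the 3 KDEL receptor genes (y axes start at 0) in every library, grouped by region and diet along the x axis. Points are libraries, blue on SC and orange on HFHS, and black bars give the group mean and SD. Kdelr3 separates cortex from both other regions on both diets, while Kdelr1 is lower on SC than on HFHS in hypothalamus and higher on SC than on HFHS in cortex by group means, with overlapping libraries.

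Among the genes of ER-associated degradation, which passes misfolded proteins back to the cytosol, Derl3 differed most. Derl3 (chromosome 10, chr10:75893413-75895941) encodes a derlin of the retrotranslocation channel. Derl3 lay between 7.45 and 14.6 TPM (median 9.69) in hypothalamus on SC and at 11.1, 5.37, 4.79, 11.7 and 9.38 TPM on HFHS. In hippocampus Derl3 lay at 6.84, 4.22, 9.56, 6.63 and 6.03 TPM on SC and between 3.19 and 7.86 TPM (median 5.62) on HFHS. Cortex Derl3 lay between 0.701 and 2.11 TPM (median 1.37) on SC and between 0.516 and 2.64 TPM (median 1.18) on HFHS. All libraries of hypothalamus and hippocampus exceeded all cortex libraries of their diet. The log2 difference from cortex was 2.14 ± 0.34 (SE; edgeR adjusted p = 6.18e-06) in hypothalamus on SC and 2.38 ± 0.35 (SE; edgeR adjusted p = 3.06e-06) on HFHS, and 1.53 ± 0.34 (SE; edgeR adjusted p = 0.00104) and 1.90 ± 0.33 (SE; edgeR adjusted p = 6.26e-05) in hippocampus. The related Derl2 went the other way on the count scale. Derl2 lay between 41.2 and 54.1 TPM (median 46.7) in hypothalamus on SC and at 56.1, 60.4, 33.9, 42.7 and 49.3 TPM on HFHS. In hippocampus Derl2 lay at 56.5, 59.2, 57.1, 62.9 and 52.5 TPM on SC and between 52.1 and 82.3 TPM (median 64.4) on HFHS. Cortex Derl2 lay between 43.6 and 71.1 TPM (median 54.4) on SC and between 52.2 and 99.2 TPM (median 74.0) on HFHS. Its TPM ranges overlapped in every pair of regions. Derl2 was lower than in cortex in hypothalamus on SC, at -0.72 ± 0.22 (SE; edgeR adjusted p = 0.011), and on HFHS, at -0.73 ± 0.23 (SE; edgeR adjusted p = 0.0202). The Derl2 call was lost on the TPM scale (-0.20, adjusted p = 0.336) and without cortex SC 6 (-0.38, adjusted p = 0.0994). It moved to -0.36 (adjusted p = 0.0305) with voom, -0.39 (adjusted p = 0.0414) without the short libraries and -1.08 (adjusted p = 0.0042) with a transcript length offset. The HFHS calls were no firmer in either region. The Derl2 call was lost without hypothalamus HFHS 3, 4 or 5 or cortex HFHS 6 (log2 -0.69 to -0.52, adjusted p between 0.0503 and 0.0858). In hippocampus on HFHS Derl2 stood at -0.57 ± 0.21 (SE; edgeR adjusted p = 0.0465), and at -0.37 (adjusted p = 0.0465) with voom. With a replicate block this call was lost. The Derl2 call was lost without a filter on low counts, with a transcript length offset and on the TPM scale (log2 -0.60 to -0.17, adjusted p between 0.0745 and 0.446) and without hippocampus HFHS 1, 3, 6 or 7 or cortex HFHS 4, 5 or 6 (log2 -0.59 to -0.35, adjusted p between 0.0592 and 0.209).

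In hippocampus on SC, 6 of 8 degradation genes were higher than in cortex, and on HFHS 2 were higher and 1 lower. Of all genes 15.4% were called higher and 15.3% lower on SC, and 13.4% and 10.8% on HFHS. Edem2, a protein that steers glycoproteins to degradation, was the member of this group called on both diets beside Derl3. Edem2 lay between 38.7 and 68.1 TPM (median 49.4) in hypothalamus on SC and at 46.5, 37.1, 44.1, 54.5 and 51.0 TPM on HFHS. In hippocampus Edem2 lay at 69.5, 64.9, 80.6, 53.3 and 50.8 TPM on SC and between 45.2 and 79.5 TPM (median 64.2) on HFHS. Cortex Edem2 lay between 10.2 and 37.2 TPM (median 34.1) on SC and between 16.0 and 67.2 TPM (median 35.7) on HFHS. Its difference between hippocampus and cortex was 0.67 ± 0.18 (SE; edgeR adjusted p = 0.00488) on SC and 0.61 ± 0.17 (SE; edgeR adjusted p = 0.00691) on HFHS. Edem1, of the same family, differed on SC. Edem1 lay between 3.97 and 23.0 TPM (median 12.0) in hypothalamus on SC and at 7.20, 7.18, 13.2, 10.8 and 7.60 TPM on HFHS. In hippocampus Edem1 lay at 20.2, 21.9, 20.8, 21.8 and 14.1 TPM on SC and between 6.97 and 25.1 TPM (median 13.2) on HFHS. Cortex Edem1 lay between 1.07 and 8.12 TPM (median 5.64) on SC and between 3.03 and 25.0 TPM (median 10.4) on HFHS. All hippocampus SC libraries exceeded all cortex SC libraries, by 1.19 ± 0.35 (SE; edgeR adjusted p = 0.00897), while on HFHS the difference was -0.07 ± 0.32 (SE; edgeR adjusted p = 0.9), and 0.274 on the TPM scale. The ubiquitin ligase Syvn1, also called HRD1, was higher in hippocampus on SC. Syvn1 lay between 18.0 and 46.0 TPM (median 35.2) in hypothalamus on SC and at 24.1, 29.7, 25.7, 28.0 and 20.3 TPM on HFHS. In hippocampus Syvn1 lay at 41.0, 40.8, 43.3, 48.9 and 37.2 TPM on SC and between 12.2 and 37.5 TPM (median 15.2) on HFHS. Cortex Syvn1 lay between 1.87 and 20.8 TPM (median 17.0) on SC and between 1.42 and 32.6 TPM (median 14.6) on HFHS. All hippocampus SC libraries lay above every cortex SC library, with a difference of 1.14 ± 0.37 (SE; edgeR adjusted p = 0.0176). On HFHS it was 0.28 ± 0.34 (SE; edgeR adjusted p = 0.594).

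Sel1l, the partner of that ligase, had a call that rested on few libraries. Sel1l lay between 23.2 and 83.9 TPM (median 59.1) in hypothalamus on SC and at 43.5, 54.8, 52.0, 40.3 and 35.0 TPM on HFHS. In hippocampus Sel1l lay at 53.5, 95.5, 46.4, 63.3 and 39.7 TPM on SC and between 30.6 and 97.3 TPM (median 34.6) on HFHS. Cortex Sel1l lay between 6.34 and 40.8 TPM (median 25.9) on SC and between 11.1 and 85.0 TPM (median 50.5) on HFHS. Its cortex libraries on HFHS reached higher than those on SC. The hippocampus difference on SC was 0.82 ± 0.32 (SE; edgeR adjusted p = 0.0483). With a replicate block this call was lost. The Sel1l call was lost with voom, without a filter on low counts, with a transcript length offset and without the short libraries (log2 0.61 to 0.85, adjusted p between 0.0502 and 0.0576) and without hippocampus SC 2 or 4 or cortex SC 2, 3, 4, 5 or 6 (log2 0.53 to 0.84, adjusted p between 0.0564 and 0.225). Herpud1 encodes a stress-induced membrane protein of the same complex. Herpud1 lay between 91.3 and 124 TPM (median 106) in hypothalamus on SC and at 121, 131, 77.0, 111 and 109.9 TPM on HFHS. In hippocampus Herpud1 lay at 138, 113, 84.0, 215 and 169.9 TPM on SC and between 92.0 and 153 TPM (median 117) on HFHS. Cortex Herpud1 lay between 23.1 and 124 TPM (median 66.6) on SC and between 43.6 and 126 TPM (median 93.4) on HFHS. Hippocampus exceeded cortex on SC by 0.69 ± 0.20 (SE; edgeR adjusted p = 0.00913), with overlapping ranges, and on HFHS the difference was 0.28 ± 0.19 (SE; edgeR adjusted p = 0.286). The Herpud1 call was lost without hippocampus SC 4 (0.53, adjusted p = 0.0541). Derl1 was not called in any comparison with this fit, with levels between 23.5 and 105 TPM over all libraries.

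Hspa5 led the chaperones. Hspa5 lay between 518 and 937 TPM (median 812) in hypothalamus on SC and at 819, 810.1, 386, 859 and 847 TPM on HFHS. In hippocampus Hspa5 lay at 849, 724, 629.6, 1231 and 1122 TPM on SC and between 532 and 1089 TPM (median 857) on HFHS. Cortex Hspa5 lay between 114 and 565 TPM (median 363) on SC and between 213 and 638 TPM (median 475) on HFHS. Every hippocampus SC library exceeded every cortex SC library, while the ranges overlapped in the other pairs of regions, where hypothalamus HFHS library 3, at 386 TPM, was the lowest outside cortex. Hspa5 was 1.93-fold higher in hippocampus than in cortex on SC, by 0.95 ± 0.21 (SE; edgeR adjusted p = 0.00111), and on HFHS by 0.68 ± 0.20 (SE; edgeR adjusted p = 0.0111). In hypothalamus it was higher on SC, by 0.64 ± 0.20 (SE; edgeR adjusted p = 0.014), and on HFHS the difference was 0.53 ± 0.21 (SE; edgeR adjusted p = 0.0688). Creld2, a chaperone of the disulfide isomerase kind that is induced by ER stress (chromosome 15, chr15:88819646-88826683), held more evenly. Creld2 lay between 135 and 208 TPM (median 149) in hypothalamus on SC and at 169.8, 141, 103, 196 and 174 TPM on HFHS. In hippocampus Creld2 lay at 121, 93.2, 109, 166 and 158 TPM on SC and between 105 and 160.3 TPM (median 130.4) on HFHS. Cortex Creld2 lay between 38.8 and 76.7 TPM (median 53.3) on SC and between 45.2 and 85.3 TPM (median 64.8) on HFHS. All libraries of hypothalamus and hippocampus lay above all cortex libraries of the same diet. The differences from cortex were 0.91 ± 0.19 (SE; edgeR adjusted p = 0.000388) and 1.02 ± 0.20 (SE; edgeR adjusted p = 0.000266) in hypothalamus on SC and HFHS, and 0.71 ± 0.20 (SE; edgeR adjusted p = 0.00813) and 0.85 ± 0.19 (SE; edgeR adjusted p = 0.00117) in hippocampus.

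Sdf2l1, a partner of BiP in the ER lumen, stood highest in hippocampus. Sdf2l1 lay between 58.2 and 109 TPM (median 89.1) in hypothalamus on SC and at 87.6, 72.1, 69.3, 79.6 and 69.0 TPM on HFHS. In hippocampus Sdf2l1 lay at 153, 105, 118, 208 and 164 TPM on SC and between 96.3 and 222 TPM (median 147) on HFHS. Cortex Sdf2l1 lay between 26.7 and 56.3 TPM (median 46.0) on SC and between 39.3 and 123 TPM (median 61.4) on HFHS. On HFHS all hypothalamus libraries lay below all hippocampus libraries, and on SC both regions lay above cortex. The hippocampus difference from cortex was 1.05 ± 0.32 (SE; edgeR adjusted p = 0.0121) on SC, 1.61 (adjusted p = 3.37e-05) without cortex SC library 6, and 0.91 ± 0.30 (SE; edgeR adjusted p = 0.0238) on HFHS. The Sdf2l1 call was lost without hippocampus HFHS 4 or 5 or cortex HFHS 2, 4 or 5 (log2 0.79 to 0.86, adjusted p between 0.0518 and 0.0649). Hsp90b1, the ER Hsp90, was called on SC. Hsp90b1 lay between 275 and 409 TPM (median 350.1) in hypothalamus on SC and at 349, 318, 287, 427 and 425 TPM on HFHS. In hippocampus Hsp90b1 lay at 422, 370.0, 407, 612 and 607 TPM on SC and between 309.9 and 533 TPM (median 405) on HFHS. Cortex Hsp90b1 lay between 89.6 and 321 TPM (median 233) on SC and between 145 and 393 TPM (median 292) on HFHS. Its hippocampus libraries on SC all lay above cortex, by 0.69 ± 0.16 (SE; edgeR adjusted p = 0.00159), and on HFHS the difference was 0.33 ± 0.15 (SE; edgeR adjusted p = 0.0992).

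The J-domain co-chaperone Dnajb11, which delivers clients to BiP, was highest in hippocampus. Dnajb11 lay between 66.9 and 88.4 TPM (median 73.1) in hypothalamus on SC and at 86.6, 76.7, 58.8, 90.6 and 92.5 TPM on HFHS. In hippocampus Dnajb11 lay at 114, 93.1, 89.9, 138 and 133 TPM on SC and between 82.8 and 131 TPM (median 103) on HFHS. Cortex Dnajb11 lay between 24.4 and 80.8 TPM (median 68.2) on SC and between 49.1 and 95.5 TPM (median 80.9) on HFHS. All hippocampus SC libraries lay above those of cortex and of hypothalamus. The difference from cortex was 0.44 ± 0.14 (SE; edgeR adjusted p = 0.0159) on SC and 0.28 ± 0.13 (SE; edgeR adjusted p = 0.119) on HFHS. The Dnajb11 call was lost without hippocampus SC 4 or 5 (log2 0.38 to 0.39, adjusted p between 0.0508 and 0.0578). Another J-domain co-chaperone, Dnajb9, was lower in hypothalamus than in cortex on SC. Dnajb9 lay between 24.2 and 31.6 TPM (median 27.3) in hypothalamus on SC and at 25.9, 48.7, 22.6, 33.8 and 21.0 TPM on HFHS. In hippocampus Dnajb9 lay at 34.3, 26.4, 21.8, 32.3 and 40.2 TPM on SC and between 11.7 and 39.0 TPM (median 19.7) on HFHS. Cortex Dnajb9 lay between 6.31 and 44.0 TPM (median 37.3) on SC and between 9.25 and 35.3 TPM (median 29.6) on HFHS. Cortex SC library 6, at 6.31 TPM, lay far below the other cortex SC libraries. The count difference was -0.66 ± 0.26 (SE; edgeR adjusted p = 0.0441), and on the TPM scale its sign turned, at 0.0022. The Dnajb9 call was lost without a filter on low counts, on the TPM scale and with a replicate block (log2 -0.65 to 0.00, adjusted p between 0.0743 and 0.997) and without hypothalamus SC 1, 2, 3 or 5 or cortex SC 1, 2, 3 or 4 (log2 -0.66 to -0.52, adjusted p between 0.0591 and 0.132). Of the other chaperones, Hyou1, a large Hsp70 relative, ranged from 0.374 to 18.7 TPM, the PERK and BiP regulator Dnajc3 from 21.3 to 101, and the secreted trophic factor Manf from 75.5 to 262, and none of them was called in edgeR with all libraries and no block. Other settings called Hyou1 between hypothalamus and cortex on SC (DESeq2, voom, the TPM scale and the replicate block), Dnajc3 in both regions on SC (voom, the TPM scale and the fit without the short libraries) and Manf in hippocampus on both diets (without the short libraries).

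**Figure D3:**
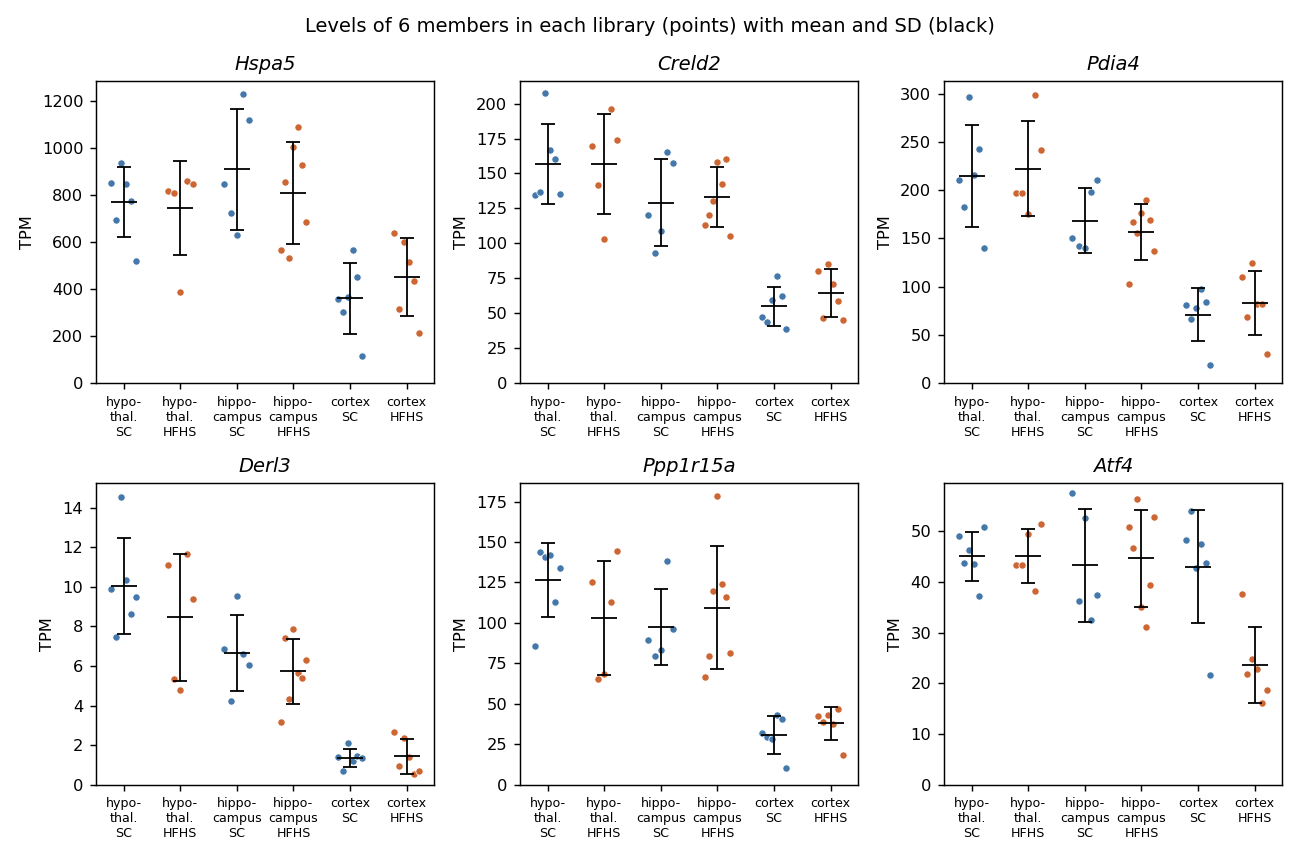
TPM of Hspa5, Creld2, Pdia4, Derl3, Ppp1r15a and Atf4 (y axes start at 0) in each library, grouped by region and diet along the x axis. Points are libraries, blue on SC and orange on HFHS, and black bars give the mean and SD of the group. Creld2, Derl3 and Ppp1r15a lie above cortex in every hypothalamus and hippocampus library of the same diet, and Atf4 is lowest in cortex on HFHS.

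Of the disulfide isomerases, which form and rearrange disulfide bonds, Pdia4 (chromosome 6, chr6:47796141-47813430) differed on both diets. Pdia4 lay between 140.0 and 296 TPM (median 213) in hypothalamus on SC and at 197, 197, 176, 299 and 242 TPM on HFHS. In hippocampus Pdia4 lay at 151, 142, 140.2, 198 and 211 TPM on SC and between 103 and 189.6 TPM (median 167) on HFHS. Cortex Pdia4 lay between 18.8 and 97.2 TPM (median 79.4) on SC and between 30.2 and 125 TPM (median 82.2) on HFHS. The hypothalamus libraries lay above cortex on both diets and those of hippocampus did so on SC. The differences from cortex were 1.14 ± 0.17 (SE; edgeR adjusted p = 3.97e-06) and 1.24 ± 0.18 (SE; edgeR adjusted p = 2.99e-06) in hypothalamus on SC and HFHS, and 0.90 ± 0.18 (SE; edgeR adjusted p = 0.00038) and 0.81 ± 0.17 (SE; edgeR adjusted p = 0.000597) in hippocampus. Pdia3, the isomerase of glycoproteins, was higher in hippocampus on SC. Pdia3 lay between 209.6 and 356 TPM (median 293) in hypothalamus on SC and at 270.2, 308, 208, 261 and 339 TPM on HFHS. In hippocampus Pdia3 lay at 289.6, 322, 266, 515 and 425 TPM on SC and between 262 and 583 TPM (median 298) on HFHS. Cortex Pdia3 lay between 114 and 232 TPM (median 175) on SC and between 194 and 355 TPM (median 284) on HFHS. Hippocampus on SC lay above cortex in all libraries, by 0.55 ± 0.22 (SE; edgeR adjusted p = 0.0498), with a call at the edge. The Pdia3 call was lost with DESeq2, with RLE scaling, without a filter on low counts and with a transcript length offset (log2 0.52 to 0.58, adjusted p between 0.056 and 0.0769) and without hippocampus SC 2, 4 or 5 or cortex SC 1, 2, 3, 4 or 5 (log2 0.43 to 0.59, adjusted p between 0.0545 and 0.161). P4hb encodes the founding isomerase of the family. P4hb lay between 114 and 211 TPM (median 149) in hypothalamus on SC and at 152, 189, 146, 181 and 151 TPM on HFHS. In hippocampus P4hb lay at 217, 204, 200.4, 180.1 and 186 TPM on SC and between 143 and 224 TPM (median 153) on HFHS. Cortex P4hb lay between 22.6 and 162 TPM (median 129) on SC and between 34.7 and 165 TPM (median 110.3) on HFHS. It was higher in hippocampus than in cortex on HFHS, by 0.47 ± 0.17 (SE; edgeR adjusted p = 0.049), with overlapping ranges. The P4hb call was lost without a filter on low counts, with a transcript length offset, on the TPM scale and without the short libraries (log2 0.33 to 0.68, adjusted p between 0.0795 and 0.136) and without hippocampus HFHS 1, 2, 3, 4 or 7 or cortex HFHS 2, 4, 5 or 6 (log2 0.36 to 0.49, adjusted p between 0.0503 and 0.126). Pdia6, between 84.9 and 406 TPM, was not called in any comparison with this fit, but was called in hippocampus on SC with voom, on the TPM scale, without the short libraries and with the replicate block.

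The lectin chaperones hold glycoproteins in the ER until they are folded. Calr lay between 288 and 393 TPM (median 319) in hypothalamus on SC and at 335, 377, 250.4, 533 and 255 TPM on HFHS. In hippocampus Calr lay at 530.4, 306, 335, 462 and 634 TPM on SC and between 182 and 529.9 TPM (median 256) on HFHS. Cortex Calr lay between 46.7 and 289 TPM (median 259.9) on SC and between 47.6 and 257 TPM (median 138) on HFHS. Calr lay above cortex in all hippocampus libraries on SC, and the ranges overlapped elsewhere. It was higher in hypothalamus than in cortex on HFHS, by 0.97 ± 0.26 (SE; edgeR adjusted p = 0.00658), while the SC difference was 0.12 ± 0.25 (SE; edgeR adjusted p = 0.74). In hippocampus it was higher by 0.68 ± 0.26 (SE; edgeR adjusted p = 0.0454) on SC and by 0.83 ± 0.25 (SE; edgeR adjusted p = 0.0122) on HFHS. In hippocampus on SC the call depended on the setting, and a replicate block was among the settings that lost it. The Calr call was lost without a filter on low counts, with a transcript length offset and without the short libraries (log2 0.57 to 0.72, adjusted p between 0.0602 and 0.0953) and without hippocampus SC 1, 4 or 5 or cortex SC 1, 5 or 6 (log2 0.53 to 0.71, adjusted p between 0.0507 and 0.147). Canx, its membrane-bound relative, was not called in any comparison with this fit and lay between 37.5 and 280.4 TPM. On HFHS it was called in both regions with voom and without the short libraries.

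Of the sensors, Atf6 was called in both regions on SC. Atf6 lay between 2.76 and 8.00 TPM (median 5.69) in hypothalamus on SC and at 2.43, 4.06, 5.28, 3.66 and 3.76 TPM on HFHS. In hippocampus Atf6 lay at 4.08, 7.64, 6.37, 6.90 and 4.23 TPM on SC and between 3.02 and 8.13 TPM (median 4.55) on HFHS. Cortex Atf6 lay between 0.732 and 4.32 TPM (median 2.55) on SC and between 0.927 and 5.38 TPM (median 4.40) on HFHS. The ranges overlapped throughout, and cortex SC library 6 was the lowest at 0.732 TPM. The log2 difference from cortex on SC was 0.84 ± 0.26 (SE; edgeR adjusted p = 0.0132) in hippocampus and 0.66 ± 0.25 (SE; edgeR adjusted p = 0.0356) in hypothalamus. The Atf6 call was lost with a transcript length offset (0.59, adjusted p = 0.066) and without hypothalamus SC 1, 2, 3 or 4 or cortex SC 2, 3 or 6 (log2 0.56 to 0.65, adjusted p between 0.0529 and 0.094). Ern1, Eif2ak3 and Atf6b were not called in any comparison with this fit, with ranges over all libraries of 0.0906 to 3.06, 0.528 to 11.8 and 5.44 to 68.4 TPM. Among the factors they act through, Xbp1 stood highest in hippocampus. Xbp1 lay between 108 and 173 TPM (median 140.4) in hypothalamus on SC and at 149.8, 148, 79.5, 136 and 142 TPM on HFHS. In hippocampus Xbp1 lay at 190.4, 174, 189, 250.3 and 208 TPM on SC and between 121 and 209 TPM (median 179) on HFHS. Cortex Xbp1 lay between 32.9 and 170.0 TPM (median 101) on SC and between 51.0 and 161 TPM (median 122) on HFHS. All hippocampus SC libraries lay above those of cortex and of hypothalamus. Xbp1 was higher in hippocampus than in cortex on SC, by 0.57 ± 0.18 (SE; edgeR adjusted p = 0.0135), and the HFHS difference was 0.40 ± 0.16 (SE; edgeR adjusted p = 0.0761). Between hypothalamus and cortex the differences were -0.05 ± 0.17 (SE; edgeR adjusted p = 0.856) and -0.03 ± 0.18 (SE; edgeR adjusted p = 0.924) on SC and HFHS, and both turned above 0 on the TPM scale, at 0.6 and 0.24. Spliced and unspliced Xbp1 mRNA could not be separated, since none of its 4 transcript models holds the IRE1 intron.

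Atf4, the translationally controlled factor of the PERK branch, was called by region on HFHS and not on SC. Atf4 lay between 37.1 and 50.9 TPM (median 45.0) in hypothalamus on SC and at 43.4, 43.2, 49.5, 38.3 and 51.5 TPM on HFHS. In hippocampus Atf4 lay at 57.5, 36.2, 52.7, 32.6 and 37.3 TPM on SC and between 31.2 and 56.4 TPM (median 46.7) on HFHS. Cortex Atf4 lay between 21.6 and 54.0 TPM (median 45.7) on SC and between 16.1 and 37.6 TPM (median 22.3) on HFHS. On HFHS all hypothalamus libraries exceeded all cortex libraries, of which 5 lay at 24.9 TPM or less. Atf4 was higher than in cortex on HFHS in hypothalamus, by 0.67 ± 0.21 (SE; edgeR adjusted p = 0.0205), and in hippocampus, by 0.71 ± 0.20 (SE; edgeR adjusted p = 0.00825), while on SC the differences were -0.45 ± 0.20 (SE; edgeR adjusted p = 0.084) and -0.43 ± 0.21 (SE; edgeR adjusted p = 0.124). On the TPM scale these SC values turned sign, to 0.113 and 0.026. The Atf4 call was lost without hypothalamus HFHS 3 or cortex HFHS 5 (log2 0.54 to 0.62, adjusted p between 0.0524 and 0.0583). Ddit3 encodes CHOP, a factor downstream of ATF4 linked to cell death. Ddit3 lay between 73.2 and 102 TPM (median 80.5) in hypothalamus on SC and at 104, 82.8, 69.5, 71.1 and 76.6 TPM on HFHS. In hippocampus Ddit3 lay at 109, 100.5, 129.9, 77.9 and 69.3 TPM on SC and between 81.9 and 128 TPM (median 102) on HFHS. Cortex Ddit3 lay between 71.5 and 187 TPM (median 93.5) on SC and between 62.0 and 168 TPM (median 91.1) on HFHS. The highest values of all were in library 6 of each cortex group, at 187 and 168 TPM. Ddit3 was lower in hypothalamus than in cortex on SC, at -1.28 ± 0.40 (SE; edgeR adjusted p = 0.0114). The Ddit3 call was lost on the TPM scale (-0.26, adjusted p = 0.327) and without cortex SC 6 (-0.45, adjusted p = 0.263). It moved to -0.48 (adjusted p = 0.0495) with voom and -0.53 (adjusted p = 0.0299) without the short libraries. In hippocampus on SC it was -0.99 ± 0.42 (SE; edgeR adjusted p = 0.0688).

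Of the PERK outputs, Ppp1r15a (chromosome 7, chr7:45522916-45526268), which encodes GADD34, a subunit that directs dephosphorylation of eIF2 alpha, separated the regions. Ppp1r15a lay between 85.8 and 144 TPM (median 137) in hypothalamus on SC and at 125, 65.0, 68.3, 113 and 145 TPM on HFHS. In hippocampus Ppp1r15a lay at 89.5, 79.4, 83.4, 138 and 96.5 TPM on SC and between 66.4 and 178 TPM (median 116) on HFHS. Cortex Ppp1r15a lay between 10.1 and 43.1 TPM (median 30.8) on SC and between 18.1 and 47.0 TPM (median 40.8) on HFHS. No cortex library reached the lowest library of the other regions on the same diet. The differences from cortex were 1.62 ± 0.21 (SE; edgeR adjusted p = 2.65e-07) and 1.24 ± 0.21 (SE; edgeR adjusted p = 4.3e-05) in hypothalamus on SC and HFHS, and 1.29 ± 0.22 (SE; edgeR adjusted p = 4.83e-05) and 1.39 ± 0.20 (SE; edgeR adjusted p = 6.79e-06) in hippocampus. Immediate early genes, which rise within minutes of a stimulus and also of tissue handling, moved with it: 15 of 22 were higher in hypothalamus than in cortex on SC and 14 in hippocampus, with median summed levels of 5375, 4405 and 760.2 TPM in hypothalamus, hippocampus and cortex. On HFHS 16 and 16 were higher, and the part of these genes in the Ppp1r15a difference was not tested. Asns, which makes asparagine and is an ATF4 target, was highest in hypothalamus on SC. Asns lay between 7.11 and 15.6 TPM (median 12.2) in hypothalamus on SC and at 5.02, 6.16, 3.37, 13.7 and 11.1 TPM on HFHS. In hippocampus Asns lay at 5.30, 4.52, 6.67, 7.00 and 5.65 TPM on SC and between 4.77 and 9.71 TPM (median 7.02) on HFHS. Cortex Asns lay between 1.90 and 7.74 TPM (median 4.86) on SC and between 2.92 and 9.17 TPM (median 5.06) on HFHS. All hypothalamus SC libraries lay above all hippocampus SC libraries. Asns was higher in hypothalamus than in cortex on SC, by 0.78 ± 0.28 (SE; edgeR adjusted p = 0.0309). The Asns call was lost without the short libraries (0.64, adjusted p = 0.111) and without hypothalamus SC 1, 4 or 6 or cortex SC 2 or 3 (log2 0.65 to 0.76, adjusted p between 0.0528 and 0.0792). Trib3, Chac1 and the constitutive GADD34 relative Ppp1r15b were not called in edgeR with all libraries and no block, though Ppp1r15b was called with the block between hypothalamus and cortex on SC and Chac1 there on the TPM scale. They reached at most 4.08, 2.80 and 32.0 TPM.

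Between hypothalamus and hippocampus, which shared a kind of column, fewer members differed. On SC 1 member was higher and 4 lower in hypothalamus, against 10.0% of all genes (5.86% called higher and 4.13% lower), and on HFHS 1 was lower and 0 higher, against 6.42% (4.24% called higher and 2.18% lower). On SC Dnajb11 was lower in hypothalamus, at a log2 difference of -0.67 ± 0.14 (SE; edgeR adjusted p = 0.00251), as were Hsp90b1 at -0.58 ± 0.16 (SE; edgeR adjusted p = 0.0171), Xbp1 at -0.62 ± 0.18 (SE; edgeR adjusted p = 0.0218) and Kdelr1 at -0.63 ± 0.20 (SE; edgeR adjusted p = 0.0427). Asns was higher, by 0.94 ± 0.30 (SE; edgeR adjusted p = 0.0416). On HFHS the called member was Sdf2l1, lower at -1.02 ± 0.32 (SE; edgeR adjusted p = 0.0455), and the members next in p were Dnajb11 at -0.44 ± 0.14 (SE; edgeR adjusted p = 0.0505) and Kdelr2 at 0.80 ± 0.25 (SE; edgeR adjusted p = 0.0522). No member was called on both diets. All 5 SC calls were lost on the TPM scale, where the member with the largest adjusted p among them was Kdelr1 (-0.54, adjusted p = 0.282) and the smallest belonged to Asns (0.89, adjusted p = 0.0519). Leaving out libraries bore on most of these calls as well, and the Asns call was also lost with a replicate block. The Dnajb11 call was lost on the TPM scale (-0.56, adjusted p = 0.0904). The Hsp90b1 call was lost without a filter on low counts and on the TPM scale (log2 -0.57 to -0.48, adjusted p between 0.0591 and 0.213) and without hippocampus SC 4 or 5 (log2 -0.52 to -0.48, adjusted p between 0.0558 and 0.0674). The Xbp1 call was lost without a filter on low counts and on the TPM scale (log2 -0.61 to -0.52, adjusted p between 0.0614 and 0.263) and without hippocampus SC 4 (-0.56, adjusted p = 0.0629). These are an ER co-chaperone, the ER Hsp90 and the IRE1 target. The Kdelr1 call was lost without a filter on low counts and on the TPM scale (log2 -0.62 to -0.54, adjusted p between 0.0928 and 0.282) and without hypothalamus SC 1, 2, 3, 5 or 6 or hippocampus SC 1, 3, 4 or 5 (log2 -0.67 to -0.55, adjusted p between 0.0558 and 0.112). The Asns call was lost without a filter on low counts, on the TPM scale and without the short libraries (log2 0.81 to 0.96, adjusted p between 0.0519 and 0.0838) and without hypothalamus SC 1, 4, 5 or 6 or hippocampus SC 1, 2, 3, 4 or 5 (log2 0.84 to 0.99, adjusted p between 0.0563 and 0.112). The Sdf2l1 call was lost with RLE scaling and without a filter on low counts (log2 -1.02 to -1.01, adjusted p between 0.054 and 0.0732) and without hypothalamus HFHS 1, 2, 3, 4 or 5 or hippocampus HFHS 1, 2, 4 or 5 (log2 -1.13 to -0.90, adjusted p between 0.052 and 0.108).

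Related lists of genes placed these members in context, beside all genes tested, of which 17.7% were higher and 18.3% lower in hypothalamus than in cortex on SC, and 15.4% and 15.3% in hippocampus. Of 33 other ER folding genes, 2 were higher and 4 lower in hippocampus than in cortex on SC, and 3 and 7 in hypothalamus. The prolyl isomerases Fkbp7 and Fkbp10 stood in hypothalamus at log2 differences of -1.62 (edgeR adjusted p = 0.000549) and -1.29 (edgeR adjusted p = 0.00266). Of 25 other degradation genes, 11 were lower and 0 higher in hypothalamus on SC, among them the lectin Erlec1 at -1.51 (edgeR adjusted p = 6.96e-05) and the ubiquitin-conjugating enzyme Ube2g1 at -0.75 (edgeR adjusted p = 0.000304), whereas in hippocampus 1 was lower and 1 higher. Of 25 genes of import into the ER, 10 were lower and 2 higher in hypothalamus on SC, and 1 and 2 in hippocampus. Of 28 genes of transport between ER and Golgi, 10 were lower and 3 higher in hypothalamus on SC, with Sec24d, a cargo adaptor of COPII coats, at 2.09 (edgeR adjusted p = 4.18e-05). In hippocampus on SC 2 of these transport genes were lower and 3 higher. On HFHS the counts in hypothalamus were 5 higher and 0 lower for folding, 0 and 4 for degradation, 0 and 2 for import, and 2 and 3 for transport, where 14.6% of all genes were higher and 9.21% lower.

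Further ATF4 targets, 28 genes of amino acid supply and stress, split in both directions. On SC 3 were higher and 9 lower in hypothalamus than in cortex, and 5 and 7 in hippocampus. Of all genes 17.7% were higher and 18.3% lower in hypothalamus on SC, and 15.4% and 15.3% in hippocampus. Atf3, which is also an immediate early gene, stood at 3.75 (edgeR adjusted p = 2.72e-08) and 3.12 (edgeR adjusted p = 3.12e-06), in hypothalamus and hippocampus, and the transcription cofactor Nupr1 at -3.37 (edgeR adjusted p = 0.000125) in hippocampus. The amino acid transporter subunit Slc3a2 stood at -1.34 (edgeR adjusted p = 2.39e-06) in hypothalamus. Of 24 regulators of the response, 4 were higher and 6 lower in hypothalamus on SC and 4 and 2 in hippocampus. The ATF6-like factor Creb3l1 stood at 1.36 (edgeR adjusted p = 0.000533) in hypothalamus and the apoptosis gene Bbc3 at 1.36 (edgeR adjusted p = 0.001). Chaperones of the cytosol also differed: 10 of 19 heat shock genes were higher in hypothalamus and 9 in hippocampus on SC, with 1 and 0 lower, where 17.7% and 15.4% of all genes were higher. Their median summed levels were 9366, 10084 and 4759.5 TPM in hypothalamus, hippocampus and cortex. Dnajb1, the co-chaperone of cytosolic Hsp70, stood at 2.41 (edgeR adjusted p = 3.57e-08) and 2.12 (edgeR adjusted p = 2.59e-06). The part of this heat shock difference in the levels of the ER chaperones was not tested.

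For diet, a region's HFHS and SC libraries were fitted without the other regions. The group median of the read-weighted mean transcript length was 2849 bases on SC and 2682 on HFHS in hypothalamus. It was 2820 and 2637 in hippocampus, and 2642 and 2869 in cortex. The part of length in the differences between diets or regions was not tested. In hypothalamus no member was called among 19272 genes, and no gene at all (0.0%). At an unadjusted p under 0.05, 2 of 38 members passed, where 8.5% of all genes did, and DESeq2 called 1 member and 87 genes (0.451%). The smallest p belonged to Kdelr1, whose hypothalamus levels are given above: 4 of the 5 HFHS libraries lay above the highest SC library, at 32.7 TPM, and the remaining library lay just under it. The log2 change from SC to HFHS was 0.63 ± 0.16 (SE; unadjusted p = 0.00124, edgeR adjusted p = 0.472), and 0.65 (adjusted p = 0.0349) in DESeq2. For Kdelr2 it was 0.77 ± 0.33 (SE; unadjusted p = 0.0342, edgeR adjusted p = 0.556), with HFHS library 3 far above the rest. For the derlin Derl1 it was 0.28 ± 0.16 (SE; unadjusted p = 0.1, edgeR adjusted p = 0.678). Hspa5 stood at 0.09 ± 0.21 (SE; unadjusted p = 0.657, edgeR adjusted p = 0.946) and Xbp1 at 0.04 ± 0.17 (SE; unadjusted p = 0.809, edgeR adjusted p = 0.975), and both lay below 0 on the TPM scale, at -0.084 and -0.127. The 4 sensors all had values below 0, with a median of -0.39, beside a median of all genes of -0.01, and none of them passed the unadjusted threshold. Over the hypothalamus libraries, diet means subtracted, their log2 TPM correlated with mean length at 0.29 (Ern1), 0.9 (Eif2ak3), 0.647 (Atf6) and 0.903 (Atf6b). Markers of cell types also had diet values away from 0 in hypothalamus, with no call. All 10 astrocyte markers had values above 0 (median 0.74, 5 with an unadjusted p under 0.05) and all 5 markers of oligodendrocyte precursors below 0 (median -1.64, 5 with an unadjusted p under 0.05). The astrocyte markers summed to between 2448 and 4075 TPM on SC and 3159 and 12017 on HFHS, and those of precursors to between 74.5 and 276 and 19.1 and 89.3. With diet means subtracted, the correlation of log2 TPM of Kdelr1 with the mean of the astrocyte markers over the 11 hypothalamus libraries was 0.63. The part of these cells in the diet values was not tested.

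In hippocampus no member and no gene was called (0.0%), 2 members passed an unadjusted p under 0.05 beside 5.17% of all genes, and DESeq2 called 0 members and 15 genes (0.0788%). Syvn1, the degradation ligase, had the smallest p. On HFHS 6 of its 7 libraries lay below the lowest SC library, at 37.2 TPM, and the highest HFHS library lay just above it. The change was -0.85 ± 0.28 (SE; unadjusted p = 0.00986, edgeR adjusted p = 0.876). The sensor Ern1 lay at 1.38, 1.41, 1.66, 1.31 and 2.28 TPM on SC and between 0.833 and 2.36 TPM (median 1.42) on HFHS in hippocampus, so its TPM ranges overlapped widely. Its count change was -0.75 ± 0.34 (SE; unadjusted p = 0.0449, edgeR adjusted p = 0.876), which turned to 0.021 with a transcript length offset. Canx lay at 205, 280.4, 199.7, 272 and 251 TPM on SC and between 128 and 261 TPM (median 160.2) on HFHS, with a change of -0.38 ± 0.18 (SE; unadjusted p = 0.0503, edgeR adjusted p = 0.876). Hspa5 stood at -0.08 ± 0.22 (SE; unadjusted p = 0.726, edgeR adjusted p = 0.959). With diet means subtracted, log2 TPM correlated with mean length at 0.66 (Syvn1), 0.72 (Canx), -0.173 (Ern1) and -0.033 (Hspa5). Of the 5 precursor markers 3 passed the unadjusted threshold in hippocampus, all below 0 (median of the list -1.09), as did 2 of 6 microglia markers above 0 (median 0.75), while the astrocyte markers had a median of 0.02. Their part in the diet values was not tested.

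In cortex no member and no gene was called in edgeR (0.0%), and 6 members passed an unadjusted p under 0.05, where 9.26% of all genes did: Atf4, Kdelr1 and Calr with values below 0 and Pdia3, Sel1l and Edem1 with values above 0. Cortex Atf4 lay at 37.6 TPM in HFHS library 1 and at 24.9 TPM or less in the other HFHS libraries, while 5 of the 6 SC libraries lay at 42.8 TPM or more and SC library 6 at 21.6. The change was -0.96 ± 0.23 (SE; unadjusted p = 0.000959, edgeR adjusted p = 0.131). It was called at -0.97 (adjusted p = 0.00644) in DESeq2, at -0.98 (adjusted p = 0.0118) in voom with quality weights and at -1.01 (adjusted p = 0.0256) in edgeR without the short libraries. Kdelr1 stood at -0.84 ± 0.22 (SE; unadjusted p = 0.00175, edgeR adjusted p = 0.16), with -0.84 (adjusted p = 0.00806) in DESeq2 and -0.89 (adjusted p = 0.0253) in voom. Sel1l stood at 0.92 ± 0.28 (SE; unadjusted p = 0.00573, edgeR adjusted p = 0.25), with 0.93 (adjusted p = 0.0499) in DESeq2 and 0.86 (adjusted p = 0.0136) in voom. Its values in HFHS libraries 1 to 5 all exceeded the SC median of 25.9 TPM, and library 6 of each diet was lowest, at 6.34 and 11.1 TPM.

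DESeq2 called 2.82% of all genes for diet in cortex and voom 2.91%, and in each 3 of the 38 members passed. Without the short libraries edgeR called 2.86% of all genes and 3 members: Atf4, Sel1l and Edem1. With a replicate block it called Atf4, Kdelr1 and Sel1l. Left out in turn, cortex HFHS library 1 gave a Kdelr1 call of -1.03 (adjusted p = 0.0452) and cortex HFHS library 6 gave Atf4 at -1.12 (adjusted p = 0.0435) and Sel1l at 1.07 (adjusted p = 0.0428). Transcript length in a library moved with these genes. Log2 TPM was correlated with the mean length across the 12 cortex libraries, with diet means subtracted. The correlation was 0.98 for Sel1l, 0.94 for Kdelr1, 0.91 for Hspa5 and 0.77 for Atf4. These values share the library and include the 2 short libraries, and they are not given without them. The correlation with the mean of the astrocyte markers was 0.80, 0.84, 0.78 and 0.71 in the same order. For diet in cortex 0 of 10 astrocyte markers passed the unadjusted threshold (median -0.13). The part of length and of astrocyte RNA in these values was not tested. Hspa5 stood at 0.24 ± 0.21 (SE; unadjusted p = 0.274, edgeR adjusted p = 0.826) in cortex.

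**Figure D4:**
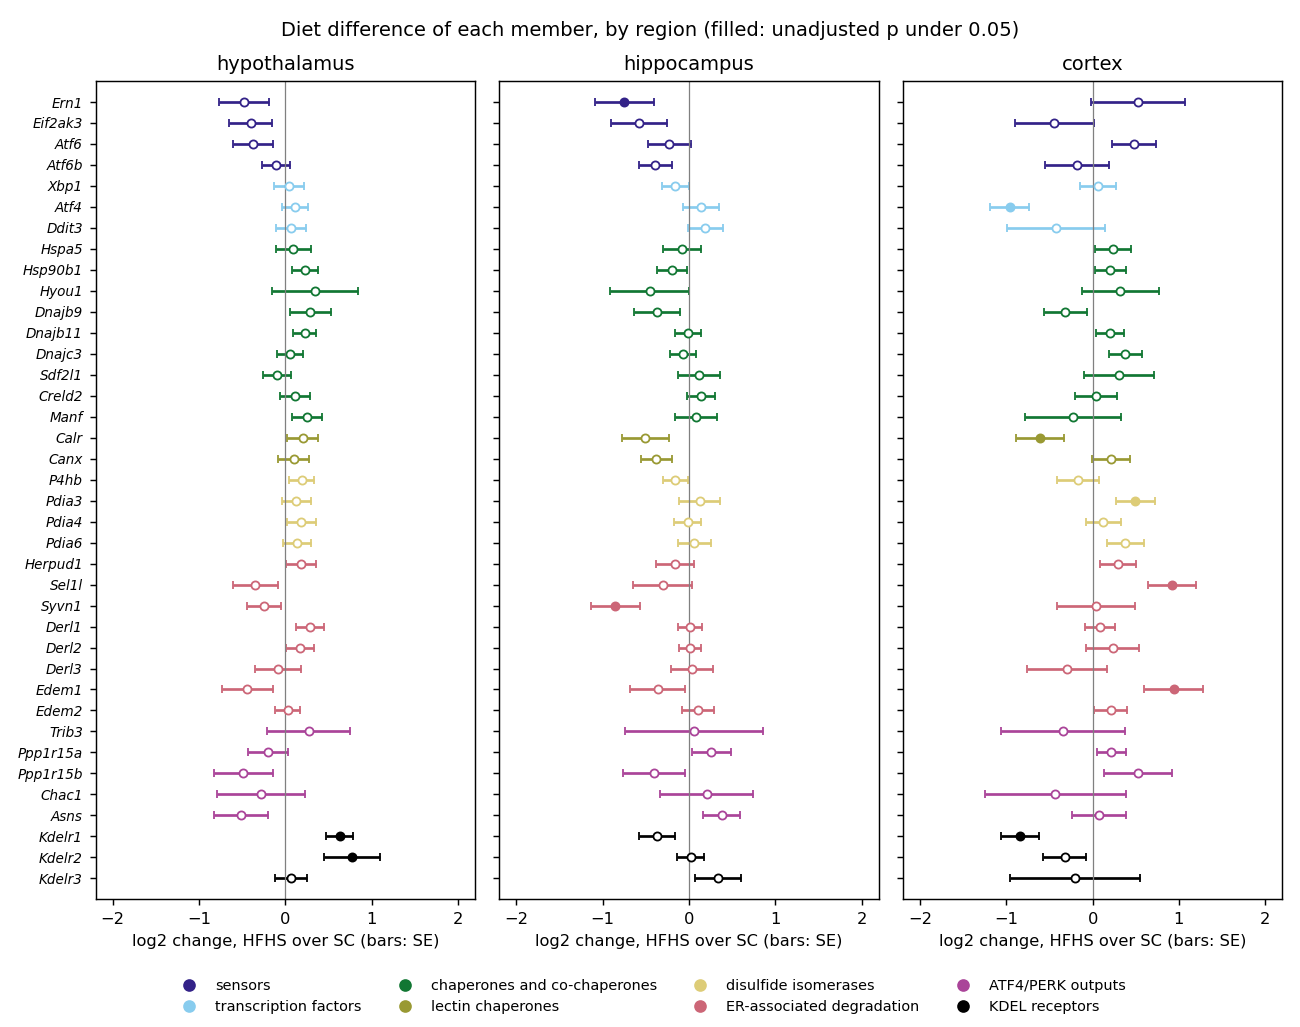
Log2 change from SC to HFHS (x axis) of each member (y axis) in hypothalamus, hippocampus and cortex, from edgeR on estimated counts, with bars of 1 SE and the role in colour. Filled points had an unadjusted p under 0.05 and none passed after adjustment over all genes. Kdelr1 lies at 0.63 in hypothalamus and at -0.84 in cortex, and Atf4 at -0.96 in cortex.

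Whether the diet acted differently in 2 regions was tested as an interaction over all 35 libraries, and edgeR called no member and no gene in any of the 3 pairs (0.0%, 0.0% and 0.0%). Between hypothalamus and cortex 7 members passed an unadjusted p under 0.05, where 11.6% of all genes did. Kdelr1 had the smallest p of the members, with a difference between the diet effects of 1.50 ± 0.28 (SE; unadjusted p = 6.91e-06, edgeR adjusted p = 0.105). It was called at 1.50 (adjusted p = 0.000137) in DESeq2, at 1.43 (adjusted p = 0.00831) in voom and at 1.50 (adjusted p = 0.0188) without the short libraries. Leaving out a single cortex library also gave a Kdelr1 call, at 1.69 (adjusted p = 0.00889) without cortex HFHS 1, 1.47 (adjusted p = 0.0309) without cortex HFHS 6 and 1.58 (adjusted p = 0.0259) without cortex SC 6. Atf4 followed at 1.11 ± 0.29 (SE; unadjusted p = 0.000616, edgeR adjusted p = 0.186), with 1.10 (adjusted p = 0.0446) in DESeq2, 1.25 (adjusted p = 0.0422) without cortex HFHS 6 and 1.24 (adjusted p = 0.0329) without the short libraries. Kdelr2 stood at 1.13 ± 0.37 (SE; unadjusted p = 0.00407, edgeR adjusted p = 0.245). With a replicate block Kdelr1 and Atf4 were among the members called, and voom also called Atf4. DESeq2 called 2 members, 0.654% of all genes being called, and voom 4, beside 2.77%, while the fit without the short libraries called 3 beside 2.23%.

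Between hippocampus and cortex 5 members passed an unadjusted p under 0.05, beside 9.3% of all genes, with Atf4 at 1.14 ± 0.29 (SE; unadjusted p = 0.000423, edgeR adjusted p = 0.44), Sel1l at -1.17 ± 0.43 (SE; unadjusted p = 0.0102, edgeR adjusted p = 0.465) and Edem1 at -1.26 ± 0.47 (SE; unadjusted p = 0.0106, edgeR adjusted p = 0.465). Between hypothalamus and hippocampus 2 members did, beside 2.01%, with Kdelr1 at 0.99 ± 0.28 (SE; unadjusted p = 0.00131, edgeR adjusted p = 1.0), Asns at -0.91 ± 0.42 (SE; unadjusted p = 0.0357, edgeR adjusted p = 1.0) and Kdelr2 at 0.75 ± 0.37 (SE; unadjusted p = 0.0501, edgeR adjusted p = 1.0). DESeq2 and voom called 0 members in either of these 2 pairs. The 3 pairs share libraries, so their values are not independent.

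Within a region part of the members varied together. With diet means subtracted, the Pearson correlation of log2 TPM with Hspa5 over the 12 hippocampus libraries was highest for Dnajb11 (r = 0.98, rho = 0.97, r without the 2 farthest libraries 0.96), Manf (r = 0.94, rho = 0.96, r without the 2 farthest libraries 0.91) and Hsp90b1 (r = 0.94, rho = 0.92, r without the 2 farthest libraries 0.95). The median over the 8 other chaperones was 0.76, that over the disulfide isomerases 0.84 and that over the degradation genes -0.03. Atf4 (r = -0.79, rho = -0.78, r without the 2 farthest libraries -0.70) and Ddit3 (r = -0.69, rho = -0.59, r without the 2 farthest libraries -0.56) went against Hspa5 there. In the 11 hypothalamus libraries Xbp1 (r = 0.94, rho = 0.59, r without the 2 farthest libraries 0.59), Pdia6 (r = 0.91, rho = 0.94, r without the 2 farthest libraries 0.78) and Dnajb11 (r = 0.83, rho = 0.88, r without the 2 farthest libraries 0.69) were closest to Hspa5. HFHS library 3 was low in Hspa5 and in Xbp1. In cortex nearly all members followed Hspa5, with a median of 0.88 over 37 members, falling to 0.55 without the 2 short cortex libraries. Xbp1 was closest in cortex as well (r = 0.99, rho = 0.96, r without the 2 farthest libraries 0.98). These values describe libraries that share depth and cell makeup and carry no test.

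**Figure D5:**
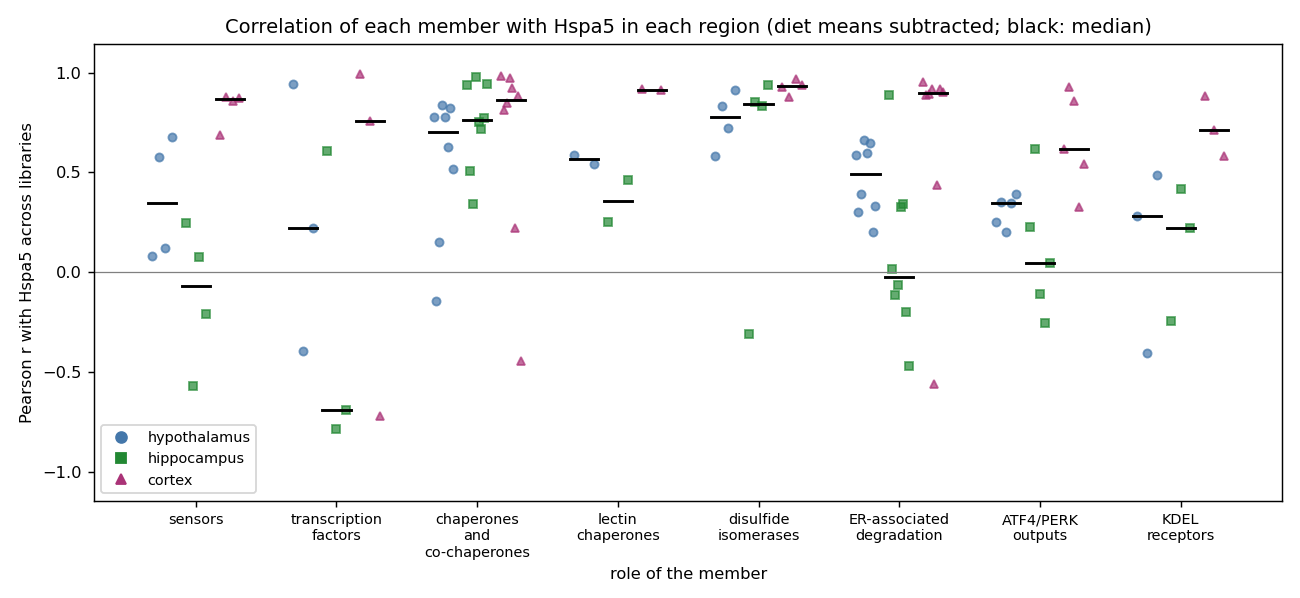
Pearson correlation of each member with Hspa5 across the libraries of a region (y axis), by role (x axis), on log2 TPM with diet means subtracted, over 11 hypothalamus, 12 hippocampus and 12 cortex libraries. Points are genes, black bars are medians over the genes of a role, and Hspa5 itself is left out. In hippocampus the chaperones and disulfide isomerases lie mostly above 0.5 and the degradation genes around 0, whereas in cortex most genes lie above 0.5.

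The promoters of these genes were searched for the ER stress response element (ERSE, spelled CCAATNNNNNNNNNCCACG), at which ATF6 and the general factor NF-Y are known to bind, since several members that followed Hspa5 are textbook ERSE genes. RefSeq promoters (build GRCm38.p6, 250 bases before to 50 after the start) were matched by symbol for 32 of 38 members. On either strand, 9 of these (28.1%) held the element, against 37 of 27025 genes with a promoter (0.137%). The matches are shown 5′ to 3′ on the strand that carries the element, with its fixed letters in capitals, so that the spacer between them can be compared.
Hspa5 (chr2:34772025-34772043, plus strand): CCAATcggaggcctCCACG
Calr (chr8:84847075-84847093, plus strand): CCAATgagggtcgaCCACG
Derl3 (chr10:75893242-75893260, minus strand): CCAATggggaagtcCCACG
Hsp90b1 (chr10:86705638-86705656, minus strand): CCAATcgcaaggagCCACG
Hsp90b1 (chr10:86705533-86705551, plus strand): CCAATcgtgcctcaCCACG
Canx (chr11:50325800-50325818, minus strand): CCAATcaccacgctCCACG
Pdia6 (chr12:17266491-17266509, plus strand): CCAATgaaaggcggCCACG
Dnajc3 (chr14:118937827-118937845, plus strand): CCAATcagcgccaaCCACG
Creld2 (chr15:88819520-88819538, minus strand): CCAATtgaggctcgCCACG
Syvn1 (chr19:6046532-6046550, plus strand): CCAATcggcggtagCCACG

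Hsp90b1 held 2 elements and the other genes 1 each. The related ERSE-II element (ATTGGNCCACG) was present in 2 members (6.25%) against 12 genes (0.0444%). Their correlations with Hspa5 were 0.98 for Dnajb11 and 0.89 for Herpud1 in hippocampus, and 0.835 and 0.587 in hypothalamus. For Herpud1 in hypothalamus rho was 0.127, and r without the 2 farthest libraries was 0.163. These members are shown for the same reason.
Herpud1 (chr8:94386377-94386387, plus strand): ATTGGgCCACG
Dnajb11 (chr16:22857852-22857862, plus strand): ATTGGcCCACG

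The ATF4 response element CARE, searched as TGATGCAA, was present in Chac1 and Herpud1, 6.25% of members against 1.03% of genes. The 8 members with an ERSE other than Hspa5 had a median correlation with Hspa5 of 0.61 across hippocampus libraries, 0.71 across those of hypothalamus and 0.91 across those of cortex. The same medians for the 23 with a promoter and no ERSE, among them Dnajb11 and Herpud1 with an ERSE-II, were 0.22, 0.39 and 0.88. Without the short libraries the medians with and without an ERSE were 0.716 and 0.426 in hypothalamus, and 0.666 and 0.544 in cortex. The element was chosen with these correlations known, so the medians carry no test. Of the members with an ERSE, Derl3 and Creld2 were higher than in cortex in both regions on both diets, whereas Canx, Dnajc3 and Pdia6 were called in none of the comparisons with all libraries and no block. Kdelr3, with the largest regional difference, held none of these letters in this window. The 250 bases before the start of the most abundant member, of its closest large chaperone, of the regional members Creld2 and Derl3, and of Kdelr3 are shown 5′ to 3′ on the gene's strand, with the fixed letters of a match in capitals (a match on the opposite strand reads as its reverse complement).
Hspa5 (chr2:34771840-34772089, plus strand): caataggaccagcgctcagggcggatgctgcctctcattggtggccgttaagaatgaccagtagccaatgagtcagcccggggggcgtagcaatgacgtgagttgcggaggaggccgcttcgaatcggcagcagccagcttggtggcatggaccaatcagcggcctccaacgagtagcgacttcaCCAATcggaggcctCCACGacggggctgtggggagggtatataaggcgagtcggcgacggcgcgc
Hsp90b1 (chr10:86705445-86705694, minus strand): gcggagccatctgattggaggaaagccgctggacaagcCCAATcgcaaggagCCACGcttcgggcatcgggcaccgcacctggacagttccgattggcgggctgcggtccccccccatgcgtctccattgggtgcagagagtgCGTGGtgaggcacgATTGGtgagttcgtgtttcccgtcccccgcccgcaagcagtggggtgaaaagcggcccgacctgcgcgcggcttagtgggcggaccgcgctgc
Creld2 (chr15:88819396-88819645, plus strand): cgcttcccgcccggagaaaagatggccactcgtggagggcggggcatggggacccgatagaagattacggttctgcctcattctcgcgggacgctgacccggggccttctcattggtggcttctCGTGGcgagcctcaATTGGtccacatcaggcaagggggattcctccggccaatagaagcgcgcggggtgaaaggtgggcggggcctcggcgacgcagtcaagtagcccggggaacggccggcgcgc
Derl3 (chr10:75893148-75893397, plus strand): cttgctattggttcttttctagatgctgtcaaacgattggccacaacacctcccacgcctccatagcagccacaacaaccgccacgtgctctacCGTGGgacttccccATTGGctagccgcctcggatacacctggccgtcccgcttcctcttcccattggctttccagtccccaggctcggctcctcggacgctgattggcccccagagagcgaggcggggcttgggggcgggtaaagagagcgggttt
Kdelr3 (chr15:79516158-79516407, plus strand): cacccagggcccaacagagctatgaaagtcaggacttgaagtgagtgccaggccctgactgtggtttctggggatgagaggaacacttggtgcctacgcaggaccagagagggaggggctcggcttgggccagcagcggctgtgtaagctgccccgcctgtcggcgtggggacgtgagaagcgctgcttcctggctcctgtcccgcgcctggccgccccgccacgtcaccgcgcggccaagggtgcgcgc

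In Hspa5 the element lay 65 to 47 bases before the RefSeq start, in Derl3 156 to 138 and in Creld2 126 to 108. It was on the gene's strand in Hspa5 and on the opposite strand in Derl3 and Creld2. The RefSeq start of Hspa5 lies inside the gene span given above, so that span covers the element. The ERSE-II of Dnajb11 lay 7 to 17 bases after its RefSeq start. A match gives the letters present and is not a measured binding site.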

How the data were processed

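The authors deposited, per library, Salmon estimated counts and TPM per transcript on build GRCm38 (FastQC is also named), per the submitters' processing notes and the file headers, with no versions stated. TPM values are scaled to library size and corrected for transcript length, per the file headers. The kit for cDNA, SMART-Seq v4 per the labels' protocols, does not keep strand. Transcripts were summed to genes with the GENCODE annotation of GRCm38: 139852 of 140948 matched, and the rest held 0.214 to 0.535% of reads. Members and lists were chosen with earlier results of these data known.

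Summed counts were rounded and tested with edgeR 4.0.16 in R 4.3.3 (filterByExpr, TMM factors, robust quasi-likelihood fits, Benjamini-Hochberg adjustment over all genes tested, threshold 0.05), diet within each region alone and the other comparisons in 1 model of 6 groups, 12 comparisons in all. The SE is the size of the log2 change divided by the square root of F. The code was tested on simulated data. Alternatives were DESeq2 1.42.0, voom with quality weights and limma on log2(TPM + 1) (limma 3.58.1), RLE scaling, no filter on low counts, a transcript length offset, fits without the short libraries, without each library in turn, and with a replicate block. The labels do not say that a replicate number marks a shared batch. Same-numbered libraries deviated together in every pair (correlations over 0.1) in 1 of 9 pairs of groups, hypothalamus SC with cortex SC (6 pairs, r from 0.112 to 0.45), and the blocked count is given beside that comparison. Values are given for members called in any comparison and for Hspa5, Xbp1, Atf4, Ddit3 and Kdelr1, and tests for members past the threshold or the 3 smallest p. That rule held tests to 8 members a comparison, and those of the other called members were added after their values were seen. Genes outside the members were named from fixed lists by smallest p, at most 3 a list. The planned share of spliced Xbp1 was not run, since no deposited Xbp1 model has an intron of 26 bases (the shortest has 300).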

Additional observations from a re-analysis of the deposited data

Results flagged for a closer look

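In groups of 5 to 7 libraries, the highest or lowest TPM of each member was set against the nearest of the others, with Dixon's limit. Of 228 sets of values 24 passed, where chance flags about 1 in 20 (11.4 sets).

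Cortex SC library 6, a library of short transcripts, held 11 of them. Low in it were the sensor Atf6b at 5.60 (others 36.8 to 51.1) TPM, Atf4 at 21.6 (others 42.8 to 54.0), the co-chaperones Dnajb11 at 24.4 (others 63.1 to 80.8) and Dnajc3 at 21.3 (others 41.7 to 52.1), the lectin Canx at 37.5 (others 165 to 228) and the isomerase P4hb at 22.6 (others 123 to 162). Also low were the degradation genes Syvn1 at 1.87 (others 14.3 to 20.8), Derl1 at 23.5 (others 60.6 to 65.4) and Edem2 at 10.2 (others 29.3 to 37.2). High in it were Ddit3 at 187 (others 71.5 to 107) and Manf at 208 (others 79.0 to 118). In cortex HFHS library 6, also of short transcripts, Ddit3 was high at 168 (others 62.0 to 92.6) TPM and Ppp1r15a low at 18.1 (others 37.2 to 47.0). The part of transcript length in these values was not tested.

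In hypothalamus HFHS library 3, Hspa5 was low at 386 (others 810.1 to 859) TPM, as was Xbp1 at 79.5 (others 136 to 149.8), while Hyou1 was high at 18.7 (others 2.79 to 6.68). In hippocampus HFHS library 2 Hyou1 was high at 11.8 (others 1.86 to 3.95), as were Sel1l at 97.3 (others 30.6 to 49.4), Derl1 at 105 (others 67.7 to 78.8) and Ppp1r15b at 32.0 (others 7.20 to 16.8). The other libraries that stood apart did so in 1 member each: Eif2ak3 was high in cortex HFHS library 1 at 10.2 (others 0.719 to 4.19) TPM, Trib3 in cortex SC library 4 at 4.08 (others 0.0490 to 1.07) and Chac1 in hypothalamus HFHS library 5 at 2.47 (others 0.626 to 1.06), and Edem1 was low in hippocampus SC library 5 at 14.1 (others 20.2 to 21.9).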

How the results depend on the processing

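Of the counts of called members under an alternative, 231 lay within 1.5 times the count reported and 39 did not. For members named by the rule 1152 values kept direction and side of the threshold, 53 lost the call, 37 gained it and 1 turned sign: Ern1 for diet in hippocampus, at 0.021 with a transcript length offset. Among the called members added later, Dnajb9 turned sign for hypothalamus against cortex on SC, at 0.0022 on the TPM scale. Values given for members with no call also turned sign on that scale: Xbp1 (0.6), Atf4 (0.113) and Kdelr2 (0.353) in hypothalamus against cortex on SC, Xbp1 on HFHS (0.24), Atf4 (0.026) and Kdelr1 (0.335) in hippocampus against cortex on SC, Edem1 on HFHS (0.274), and Hspa5 (-0.084) and Xbp1 (-0.127) for diet in hypothalamus. For diet in hypothalamus DESeq2 called 1 member. For diet in cortex DESeq2 called 3, voom 3 and the fit without the short libraries 3. For hypothalamus against cortex on SC the TPM scale gave 21, with no share of all genes given beside it. For hypothalamus against hippocampus on SC voom gave 12, no filter 1 and the TPM scale 2, against 5. On HFHS, against 1, DESeq2 gave 4, voom 3, RLE scaling 0, no filter 0, the length offset 2 and the fit without short libraries 4. For the interaction of hypothalamus and cortex DESeq2 gave 2, voom 4 and the fit without short libraries 3. The cause of these changes was not tested.

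Without each library in turn, the count ran from 9 to 13 for hypothalamus against cortex on SC and 8 to 13 on HFHS, 13 to 18 and 9 to 13 for hippocampus against cortex, 1 to 4 and 0 to 2 for hypothalamus against hippocampus, 0 to 2 for diet in cortex, 0 to 2 for its interaction with hypothalamus, and stayed at 0 in the other 4 comparisons.

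Whether same-numbered libraries share more than a number is not given by the labels. Between cortex SC and cortex HFHS, 5 of 6 same-numbered pairs correlated over 0.1 (r from -0.212 to 0.832). Between hippocampus SC and hippocampus HFHS 4 of 5 did (r from 0.085 to 0.769). The replicate block gave 3 called members for diet in cortex, 0 in hypothalamus and 0 in hippocampus, 12 for hypothalamus against cortex on HFHS, 17 and 13 for hippocampus against cortex on SC and HFHS, 5 and 4 for hypothalamus against hippocampus, 4 for the interaction of hypothalamus and cortex and 0 for the other 2. For hypothalamus against cortex on SC the block gave 15. No shares of all genes are given for the blocked fits. Across diets 9 of 16 libraries and across regions 15 of 32 correlated best with their own number.

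The lowest members, Trib3 and Chac1, had medians under 1 TPM and are counted least precisely. The share of spliced Xbp1 was not run.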
